A study of Mus musculus with 80 samples.

Results

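The genes examined were 10 glycolytic enzyme genes, Gpi1, Aldoa, Tpi1, Gapdh, Pgk1, Pgam1, Eno1, Eno2, Pkm and Ldha, out of 21938 protein-coding genes in GENCODE release M21. The list was fixed by name, and every RXR ChIP-Seq peak overlapping 1 of their gene bodies on mm10 (GRCm38) was taken, which gave 703 peaks in 40 livers. All mice were male C57BL6/J animals aged 5 months that had spent 12 weeks on their diet, with 5 livers in each of 8 groups. WT and KO mice were fed a control diet without drug (Control) or with pioglitazone (Pio), or a high-fat diet without drug (HFD) or with pioglitazone (HFD-Pio). Pioglitazone activates PPARγ, a nuclear receptor that binds DNA together with RXR. In KO mice PPARγ was deleted with a Cre driven by the albumin promoter, so hepatocytes are its target and other cells of the liver may keep the gene. The WT mice were wildtype C57BL6/J and not floxed littermates. The labels name an RXR antibody for all WT livers and for KO Control, but none for the other 15 KO livers, whose titles say RXR.

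Glycolysis turns glucose into pyruvate in the cytosol, and lactate dehydrogenase then turns pyruvate into lactate. Most steps have several enzymes encoded by different genes, and the liver is known for its own set, among them the liver form of pyruvate kinase. Most of the 10 genes encode the widely expressed forms, whose transcripts are abundant in many tissues, whereas Eno2 encodes the enolase of neurons and Aldoa and Pkm encode forms that predominate outside the adult hepatocyte. Several of these transcripts are also known to have been copied back into the genome as processed pseudogenes, which keep the joined exons and have no introns.

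The peaks lay on exons. The windows printed here show where 6 exons end in the gene, chosen because results on Aldoa, Tpi1, the exon pair of Pkm and the copies of Pgk1 and Gapdh are described on them, with the last 15 exon bases in capitals and the first 15 intron bases in lower case, on the gene's strand.
Aldoa exon 3: GTTGTGGGCATTAAGgtaagagggcagact
Tpi1 exon 5: GCAACCCCTCAGCAGgtaactacccagagc
Pkm exon 9: CACGGAGTCTGGCAGgtagggccctaaggg
Pkm exon 10: CACCAAGTCTGGCAGgtaggaggcggcagt
Pgk1 exon 8: CCTGCTGGCTGGATGgtgagtcagctggct
Gapdh exon 5: CGCCTGGAGAAACCTgtatgtatggggaga
In the same order these windows are chr7:126797322-126797351 (minus strand), chr6:124811867-124811896 (minus), chr9:59675181-59675210 (plus), chr9:59675720-59675749 (plus), chrX:106200322-106200351 (plus) and chr6:125162463-125162492 (minus). For 4 of these genes the next set shows the same join in an intronless copy elsewhere in the genome, where the exon runs straight into the next exon, so all 30 bases are in capitals.
Aldoa copy: GTTGTGGGCATTAAGGTAGATAAGGGTGTG
Pkm copy: CACCAAGTCTGGCAGGAGTGCTCACCAAGT
Pgk1 copy: CCTGCTGGCTGGATGGGCTTGGACTGTGGT
Gapdh copy: CGCCTGGAGAAACCTGCCAAGTATGATGAC
The copies are at chr4:72852066-72852095, chr5:22724849-22724878 (Gm6560), chr3:58103297-58103326 (Gm5537) and chr11:20335249-20335278 (Gm12033), all read on the minus strand. Each of these 30-base windows had 0 differences from the spliced transcript of its parent gene. The 4 copies were picked, among those of high identity, for peaks in the most treated WT and then the most KO livers. That they carried RXR peaks therefore follows from the choice, and the other copies are described further on.

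Libraries differed between genotypes. After filtering, the ChIP libraries held 2.04 to 4.26 M tags in WT and 0.628 to 1.06 M tags in KO livers, and the peak caller was run with a cutoff on p (0.001) for WT and on q (0.05) for KO libraries. Genotype, depth and cutoff cannot be told apart here. In 6 of the 10 Pio-treated WT libraries (Pio 2, 3 and 5, and HFD-Pio 1, 4 and 5) the fragment length estimated by the peak caller was 45 to 48 bp, against 169 to 292 bp in the other WT and 119 to 168 bp in the KO libraries. Livers were used whole, so more cells of a type and more binding per cell cannot be told apart.

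Across the groups, the 10 genes showed no peak at all in untreated WT livers and many peaks elsewhere. There were 0 peaks in the 10 WT Control and WT HFD livers, 185 in the 10 WT Pio and WT HFD-Pio livers and 518 in the 20 KO livers. WT Control 2 had peaks in 13.9% of all protein-coding genes and in 0 of the 10, and WT Pio 1 in 11.7% and in 5 of the 10. This is 1 pair of livers, and the other untreated WT livers had peaks in 0.962% to 9.42% of all genes. Counts with peak lists of equal length are given further on. Counting genes called in at least 3 of 5 livers, WT Control and WT HFD had 0 of the 10, against 2.21% and 0.515% of all genes. WT Pio had 6 and WT HFD-Pio 5, against 12.7% and 10% of all genes. KO Control and KO HFD had 6, against 24.3% and 25.7%, and KO Pio and KO HFD-Pio had 7, against 29.0% and 27.6%. The number of the 10 genes with a peak ranged from 1 to 9 per WT Pio liver, from 1 to 10 per WT HFD-Pio liver and from 4 to 8 per KO liver. The genes have shorter bodies than most, with a median of 10890 bp against 17425 bp over all protein-coding genes.

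**Figure D1:**
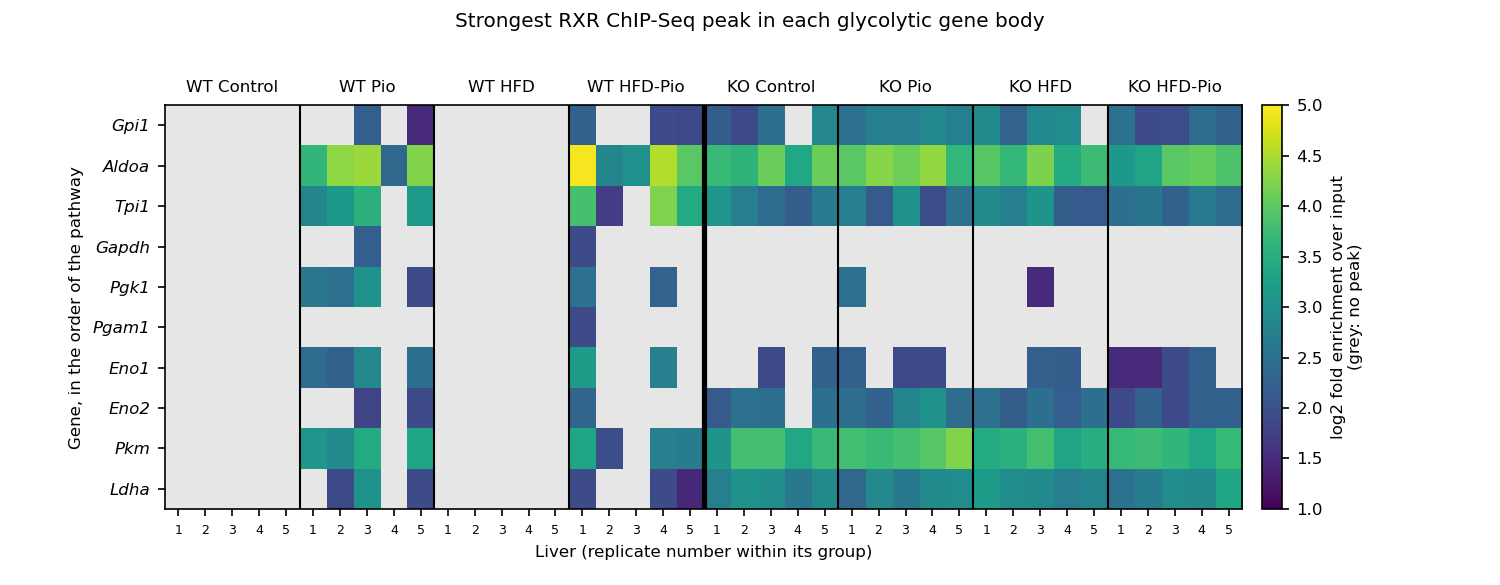
Strongest peak in the body of each of the 10 genes (rows, in pathway order) in each of the 40 livers (columns, by group), as log2 fold enrichment over input, with grey where there was no peak. The 10 untreated WT livers are grey in every row, Aldoa is filled in all 30 other livers, and Gapdh and Pgam1 are filled in 2 livers and 1 liver.

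Aldoa encodes aldolase A, which splits fructose bisphosphate, and it was the gene with the most uniform calls. It lies at chr7:126795234-126800751 on the minus strand and had 127 peaks, in all 30 livers that were Pio-treated WT or KO. Its strongest fold enrichment over input was 12.4, 19.9, 21.2, 5.05 and 18.9 in WT Pio 1 to 5. In WT HFD-Pio 1 to 5 it was 30.9, 7.12, 8.06, 23.2 and 15.8. The 6 short-fragment libraries gave the highest values, 15.8 to 30.9, and the other 4 treated WT livers gave 5.05 to 12.4. The KO groups overlapped one another and both treated WT groups, with 10.5 to 17.2 in KO Control, 12.5 to 20.3 in KO Pio, 11.02 to 18.5 in KO HFD and 8.80 to 16.7 in KO HFD-Pio. A second annotated Aldoa entry upstream, at chr7:126800790-126809108, had 0 peaks.

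Pkm encodes the muscle type pyruvate kinase, which makes pyruvate in the last step of glycolysis. The gene, at chr9:59656368-59679375 on the plus strand, had 243 peaks, more than any other of the 10. Its strongest fold enrichment in KO livers was 8.42 to 13.97 in Control, 13.1 to 18.9 in Pio, 10.1 to 13.8 in HFD and 10.4 to 13.4 in HFD-Pio. In WT Pio it was 8.59, 7.46, 10.9 and 10.3 in livers 1, 2, 3 and 5, and liver 4 had no peak. In WT HFD-Pio it was 10.3, 3.88, 6.67 and 6.41 in livers 1, 2, 4 and 5, and liver 3 had no peak. All treated WT livers were thus at or below 10.9, and 16 of the 20 KO values exceeded that level.

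Tpi1, Ldha and Gpi1 were called in most KO livers and in part of the treated WT livers. Tpi1 (triose phosphate isomerase, chr6:124810586-124814296) was called in 8 of 10 treated WT and 20 of 20 KO livers, with 3.32 to 18.7 in treated WT and 3.91 to 8.45 in KO. Ldha (the muscle type subunit of lactate dehydrogenase, chr7:46841475-46855627) was called in 6 of 10 treated WT livers at 2.75 to 8.20 and in 20 of 20 KO livers at 5.08 to 10.4. Only WT Pio 3, at 8.20, overlapped the KO range among the WT livers, as the other 5 were at 3.81 or lower. Gpi1 (glucose phosphate isomerase, chr7:34201330-34230336) was called in 5 treated WT livers at 2.82 to 4.69 and in 18 KO livers at 3.73 to 7.63.

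The enolase genes differed from each other. Eno2, the neuronal enolase (chr6:124760053-124769673), was called in 3 of 10 treated WT livers at 3.53 to 4.95 and in 19 of 20 KO livers at 3.68 to 8.18. Eno1, the widely expressed enolase (chr4:150236721-150248879), was called in 6 of 10 treated WT livers at 4.68 to 9.20 and in 11 of 20 KO livers at 2.82 to 4.75. For Eno1 the 2 ranges overlapped only at 4.68 to 4.75, with treated WT higher.

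Pgk1, Gapdh and Pgam1 were the genes with few or no KO calls. Pgk1 (phosphoglycerate kinase, chrX:106187100-106203699) was called in 6 treated WT livers, at 6.08, 5.61, 8.20 and 3.75 in WT Pio 1, 2, 3 and 5 and at 5.63 and 4.76 in WT HFD-Pio 1 and 4. It was called in 2 KO livers, at 5.64 in KO Pio 1 and 2.82 in KO HFD 3. Gapdh (glyceraldehyde phosphate dehydrogenase, chr6:125161715-125166467) had 3 peaks in all, in WT Pio 3 and WT HFD-Pio 1, with at most 4.56-fold enrichment. Pgam1 (phosphoglycerate mutase, chr19:41911923-41918660) had 1 peak, in WT HFD-Pio 1, at 3.75-fold enrichment.

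The first comparison asked whether Pio changed RXR calls at these genes in WT livers. A gene was counted as gained when at least 3 of 5 treated and 0 of 5 untreated livers had a peak in its body, and as lost in the reverse case. With Pio on control diet 6 of the 10 genes were gained (Aldoa, Eno1, Pkm, Pgk1, Ldha and Tpi1) and 0 lost, against 7.50% of all protein-coding genes gained and 0.0684% lost. With HFD, 5 of the 10 were gained (Aldoa, Pkm, Ldha, Tpi1 and Gpi1) and 0 lost, against 7.67% of all genes gained and 0.00456% lost. If liver 1, 4 or 5 of WT HFD-Pio was left out, the count with HFD became 3 (Aldoa, Pkm and Tpi1), while the share of all genes gained fell to 2.89%, 3.23% and 3.06%. When the 10 peak lists of a comparison were shortened to equal length, 1 of the 10 genes was gained on control diet (Aldoa, 1.53% of all genes) and 2 with HFD (Aldoa and Tpi1, 0.857%). Only Aldoa reached 5 treated livers against 0 in both diets, and the two-sided Fisher's exact test then gave the smallest p this design allows, 0.00794. After Benjamini-Hochberg adjustment over 3921 and 2574 genes these became 0.114 and 0.105, and 0 genes of any kind passed an adjusted p of 0.05. At an unadjusted p below 0.05 the same exact test passed 1125 and 617 genes, 5 and 3 of the 10 among them.

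The gained calls moved with the fragment estimates, as calls did over all genes. Of all protein-coding genes 20.6% were called in at least 3 of the 6 treated WT libraries with short estimates and 5.61% in at least 2 of the 4 with longer estimates, against 8 and 3 of the 10 genes. In the 6 treated WT livers with short estimates, calls numbered 6 for Aldoa, Pkm, Tpi1 and Ldha, 5 for Eno1, Pgk1 and Gpi1, 3 for Eno2, 2 for Gapdh and 1 for Pgam1. In the 4 treated WT livers with longer estimates, calls numbered 4 for Aldoa, 2 for Pkm and Tpi1, 1 for Eno1 and Pgk1 and 0 for the other 5 genes. Without the short-fragment libraries 2 treated livers remained per diet, and Aldoa was the only gene of the 10 with a peak in both against 0 of 5 untreated livers, in each diet (1.40% and 1.07% of all genes). The part of the fragment estimate in the gained calls was otherwise not tested.

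Within KO livers no member passed the rule for a gain or a loss. In KO Pio against KO Control 0 of the 10 genes were gained or lost (0.811% of all genes gained, 0.187% lost), and in KO HFD-Pio against KO HFD 0 were gained or lost (0.474% and 0.296%). Fisher's exact test called 0 of 7771 and 0 of 7762 genes at an adjusted p of 0.05, and at an unadjusted p below 0.05 it passed 104 and 44 genes, with 0 of the 10 among them. A gene with any call in the untreated group cannot be gained by this rule, which left Gapdh, Pgk1 and Pgam1 in the first comparison and Gapdh and Pgam1 in the second. Whether the Pio effect differed between genotypes was not tested. The 4 diet contrasts likewise gained and lost 0 of the 10 genes. The background shares were 0.0137% gained and 0.852% lost for WT HFD, 0.219% and 0.374% for WT HFD-Pio, 0.456% and 0.242% for KO HFD, and 0.242% and 0.574% for KO HFD-Pio, each against the same genotype and drug on control diet.

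Strength was compared with limma on the log2 strongest fold enrichment, centred on each library's median, for genes with a peak in all 10 livers. In KO Pio against KO Control, Aldoa changed by 0.20 ± 0.16 (log2, SE; adjusted p = 0.967), Pkm by 0.25 ± 0.16 (adjusted p = 0.876), Ldha by -0.21 ± 0.16 (adjusted p = 0.967) and Tpi1 by -0.22 ± 0.21 (adjusted p = 0.982). A gene passed when its adjusted p was below 0.05 and its change also reached a minimum size, so smaller changes are not counted. None of these 4 passed, and 4 of the 2207 genes tested did, all lower with Pio (0.181%). The 95% interval for Pkm ran from -0.07 to 0.57, so these livers allow a change of up to 0.57 upward. In KO HFD-Pio against KO HFD 0 of 5 members passed and 0 of 2394 genes did, with 100 genes at an unadjusted p below 0.05. In KO HFD-Pio against KO Pio the lowest member values were those of Gpi1, -0.40 ± 0.17, and Eno2, -0.38 ± 0.17, both with an adjusted p of 0.996 by limma. In WT HFD-Pio against WT Pio only Aldoa could be tested, with 0.37 ± 0.27 and an adjusted p of 0.997.

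Most of these genes were called in KO and not in WT livers without Pio, and in livers of both genotypes with Pio. In WT Control against KO Control 6 of the 10 genes were called in at least 3 KO and 0 WT livers (Aldoa, Eno2, Pkm, Ldha, Tpi1 and Gpi1), against 17.2% of all genes, and in WT HFD against KO HFD the same 6 were, against 23.0%. In these 2 comparisons 0 of the 10 were called in at least 3 WT and 0 KO livers, against 0.433% and 0.123% of all genes. The peak lists differ in length between genotypes, and with lists of equal length the counts were 2 (Aldoa and Pkm, 2.06% of all genes) and 1 (Aldoa, 1.38%). Fisher's exact test passed Aldoa, Pkm, Ldha and Tpi1 in the first (5 of 5 against 0 of 5 livers, adjusted p = 0.0296) and also Eno2 in the second (adjusted p = 0.0201). It passed 26.8% and 39.5% of the genes tested in these 2 contrasts. In WT Pio against KO Pio and WT HFD-Pio against KO HFD-Pio, 0 of the 10 were called in at least 3 livers of 1 genotype and 0 of the other (10.8% and 11.1% of all genes with the calls in KO, 2.33% and 1.70% in WT). Below that limit, Gapdh was called in 1 WT Pio and 0 KO Pio livers, Pgk1 in 2 WT HFD-Pio and 0 KO HFD-Pio livers, and Gapdh and Pgam1 in 1 and 0 of the latter groups. There 0 of the 8 and 0 of the 7 members tested passed Fisher's exact test, while 17.3% and 17.2% of the genes tested did. Eno2, in 1 WT and 5 KO livers with HFD-Pio, had an exact p of 0.0476 and an adjusted p of 0.137. By limma Aldoa differed by -0.35 ± 0.24 (adjusted p = 0.222) and 0.19 ± 0.22 (adjusted p = 0.533) between treated WT and KO livers. Pkm was not among the genes with a peak in all 10 livers, and limma called it between WT HFD-Pio and KO HFD-Pio when genes with a peak in at least 4 of 5 livers were tested (adjusted p = 0.00525), with 3.88 to 10.3-fold enrichment in the WT and 10.4 to 13.4 in the KO livers.

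Within the genes the peaks were exonic. Of the 703 summits, 524 lay in coding exons, 108 in 3′ UTRs, 2 in 5′ UTRs and 69 in introns of the principal transcript, so 90.2% were exonic. Exons made up 16.1% of the gene bodies and held 70.3% of the peak bases. Counting only peaks that touch an exon, the number of the 10 genes called in at least 3 of 5 livers stayed at 6 in WT Pio and 5 in WT HFD-Pio, while the share of all genes was 6.55% and 4.0%. It was 6, 7, 6 and 7 in KO Control, Pio, HFD and HFD-Pio, against 22%, 26.9%, 23.6% and 25.0% of all genes, and 0 in WT Control and WT HFD, against 0.0593% and 0.0547%. Only 13 of the 703 peaks touched no annotated exon of their gene. Counting only peaks that touched no exon, 0 of the 10 genes were gained with Pio in either WT comparison, against 1.79% and 3.23% of all genes. Summits over all protein-coding genes were in an exon in 3.79% of cases in untreated WT, 43.7% in treated WT and 82.5% in KO livers. By the same count over all annotated transcripts, summits in the 10 genes were exonic in 95.7% of cases in treated WT and 89.2% in KO livers, so the KO share lay near that of all genes.

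Treated WT and KO livers differed in which exons were called. In treated WT livers 3 of 185 summits lay in 3′ UTRs, against 105 of 518 in KO livers. The last exon of Ldha (exon 8) was touched in 0 of 10 treated WT and 19 of 20 KO livers, that of Gpi1 (exon 18) in 0 and 18, and that of Eno2 (exon 12) in 0 and 13. The last exon of Aldoa (exon 9) was touched in 2 and 20 livers and that of Pkm (exon 12) in 3 and 20. Tpi1 went the other way, with its last exon (exon 7) in 7 of 10 treated WT and 11 of 20 KO livers. Over all protein-coding genes the UTR share of exonic summits was 21.3% in treated WT and 42.0% in KO livers, so the members' shares, 1.69% and 24.2%, were below the background in both. Peaks were also narrower in treated WT, with a median of 69 bp against 235 bp in KO. The fragment estimate was 45 to 48 bp in 6 of the 10 treated WT libraries and 119 to 168 bp in the KO libraries. Its part in the peak widths and in the exons touched was not tested.

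**Figure D2:**
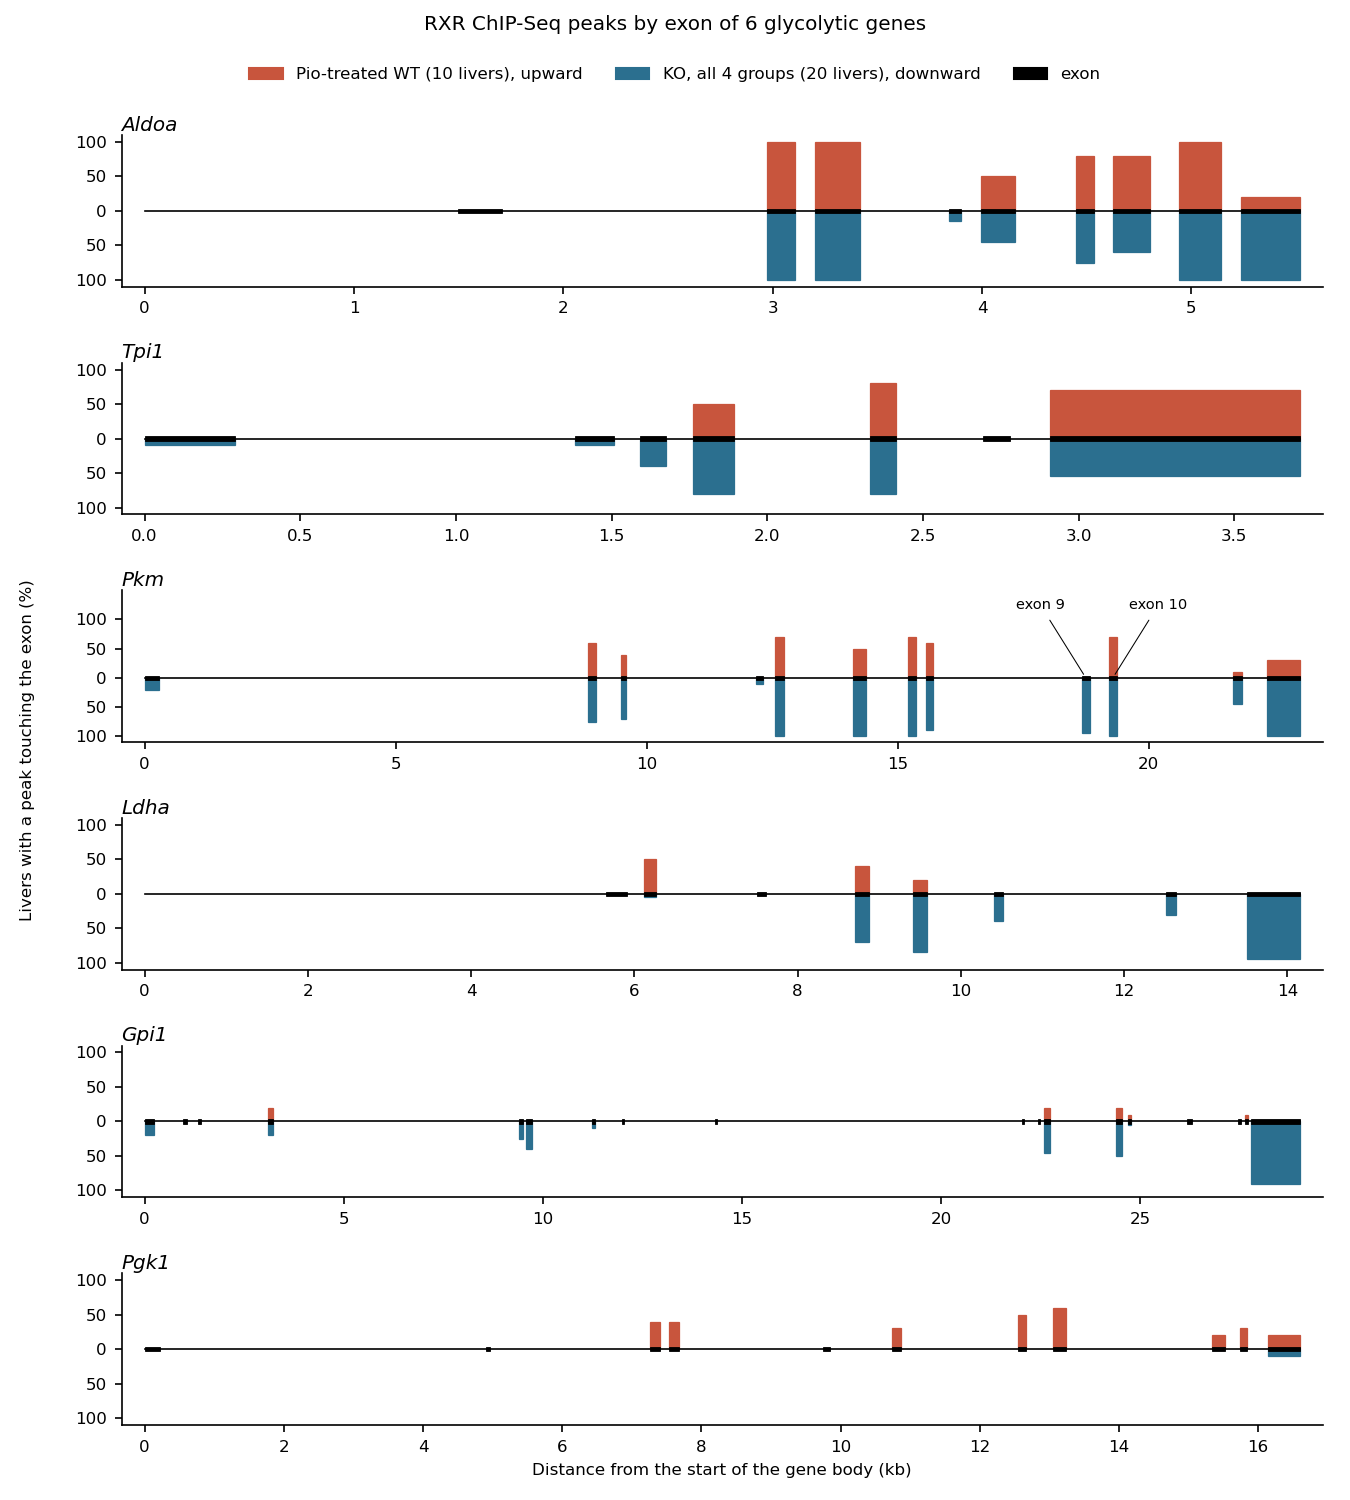
Share of livers with a peak touching each exon (percent; upward for the 10 Pio-treated WT, downward for the 20 KO livers), with exons drawn to scale along each gene (kb from the start of the gene body). Bars stand on exons of the 6 genes, Pkm exon 9 has a bar in KO only, and the last exons of Ldha and Gpi1 have bars of 19 and 18 of 20 KO livers and none in treated WT.

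Within a gene some exons were touched in more livers than others. In Aldoa, exons 2 and 3 shared a site at chr7:126797062-126797930 that was called in all 30 livers, with a median fold enrichment of 15.7, and exon 8 was also touched in all 30. Aldoa exon 1, which is non-coding, was touched in 0 livers. In Tpi1 exon 5 was touched in the most livers, 8 treated WT with a median of 8.95 and 16 KO with a median of 4.69. Over all livers called, its site had a median of 5.39, against 5.88 at the site of exons 3 and 4. In Pgk1 exon 8 was touched in 6 treated WT and 0 KO livers, and the 2 KO peaks lay on the last exon (exon 11). The median at exon 8 was 3.77, against 5.61 at exon 7, which was touched in 5 livers.

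Pkm has 2 mutually exclusive exons of 167 bp that make its transcripts differ. Exon 9 (chr9:59675029-59675195) belongs to the M1 form, known from muscle and brain, and exon 10 (chr9:59675568-59675734) to the M2 form, known from proliferating and many adult tissues. They are 61.7% identical (103 of 167 bases) and end in the windows printed above. In KO livers both exons were touched in 19 of 20 livers and exon 10 alone in 1. In treated WT livers exon 10 alone was touched in 7 of 10 livers, and exon 9 in 0. Fold enrichment at exon 9 in KO livers had a median of 5.47, against 8.41 at exon 10. Exon 9 has 0% of its 50-base windows within 2 mismatches of sequence elsewhere in the genome and exon 10 has 100%, and the part of this in the calls was not tested.

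Copies of the exons elsewhere bear on what the reads, which were 50 bases long, can tell. A window of 50 exon bases was counted as copied where the same 50 bases occur outside the gene. The copied share was 94.4% for Pgam1, 90.05% for Pgk1, 84.1% for Gapdh and 67.8% for Eno1. It was 36.0% for Pkm, 28.1% for Tpi1, 27.3% for Ldha, 19.05% for Gpi1, 12.7% for Aldoa and 0.725% for Eno2. The 4 genes with the higher shares were called in 0 to 11 of 20 KO and 1 to 6 of 10 treated WT livers, and the other 6 in 18 to 20 and 3 to 10. How reads that fit several places were handled is not given in the sources used here, and the part of reads shared with copies in these calls was not tested.

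The copies themselves carried peaks. Counting loci with at least 90% identity to at least 50% of the spliced transcript, 9 of the 10 genes had 146 copies, of which 141 overlapped annotated pseudogenes and 107 had a peak in at least 1 liver. Eno2 had none. No copy had a peak in an untreated WT liver. Of 1022 peaks on copies, 1020 (99.8%) had their summit inside the copied sequence, and 99.2% of the peak bases lay inside it.

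Gapdh had the most copies, 117, and 82 of them had a peak although the gene itself was called in 2 livers. Copies with a peak numbered 39, 43, 64, 3 and 36 in WT Pio 1 to 5 and 59, 4, 8, 51 and 19 in WT HFD-Pio 1 to 5. In KO livers they numbered 2 to 6 in every group, and in untreated WT livers 0. The low treated WT values, 3 to 8, were all in libraries with longer fragment estimates, though WT Pio 1 with 39 was also such a library. The copy shown above, Gm12033, was picked for its calls. It is 99.8% identical to the Gapdh transcript and was called in 7 treated WT and 14 KO livers, with up to 18.8-fold enrichment. Of the 117 copies, 49 were called in at least 3 treated WT livers and 7 in at least 3 KO livers. Among all 9940 annotated processed pseudogenes, 18.04% were called in at least 3 of 10 treated WT, 9.19% in at least 3 of 20 KO and 0% in at least 3 of 10 untreated WT livers. For the 110 at Gapdh copies these shares were 42.7%, 6.36% and 0%.

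**Figure D3:**
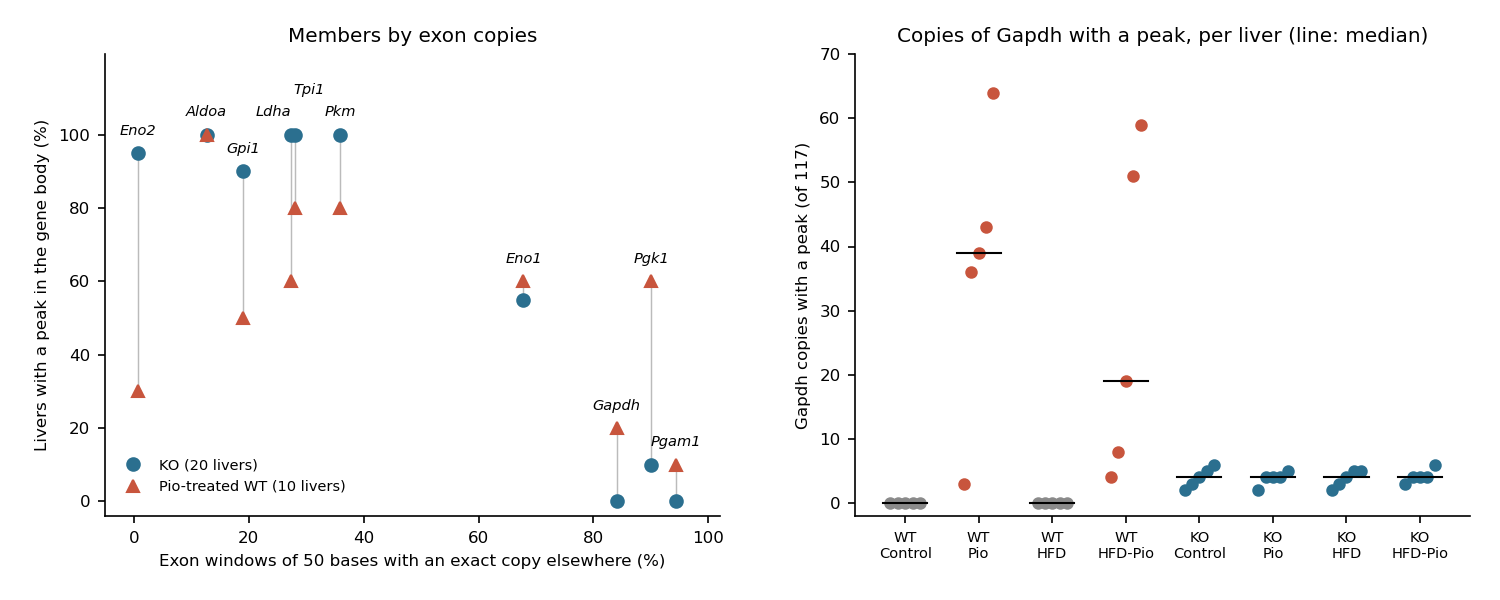
Left, livers with a peak in each gene body (percent; circles for 20 KO, triangles for 10 Pio-treated WT livers) against the share of its 50-base exon windows that occur elsewhere in the genome (percent). Right, the number of the 117 Gapdh copies with a peak in each liver by group, with the median as a line, at 0 in untreated WT, 3 to 64 in treated WT and 2 to 6 in KO livers.

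Copies of other members followed their parent genes in part. The 2 copies of Pgk1 were called in 8 treated WT and 0 KO livers, and the gene in 6 and 2. The Aldoa copy on chromosome 4, with 93.0% identity, was called in 10 treated WT and 20 KO livers, as the gene was. The Aldoa copies on chromosomes 9 and X were called in 8 and 7 treated WT and in 15 and 7 KO livers. The Pkm copy Gm6560, with 96.5% identity, was called in 8 treated WT and 20 KO livers, the same counts as for the gene. The livers were not all the same, since the gene was called in WT HFD-Pio 2 and not 3, and the copy in 3 and not 2. The Pkm copies Gm6992, Gm13812 and Gm13810 were called in 4, 1 and 1 treated WT and in 3, 0 and 0 KO livers. Pgam1 differed, since its 4 copies had peaks in 5 treated WT and 19 KO livers while the gene was called in 1 and 0.

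The direct repeat of AGGTCA with 1 base between its copies, the element known to be bound by PPARγ with RXR, was searched on both strands within 100 bp of the strongest summit of each site, allowing 2 mismatches. The 10 genes held 73 sites when overlapping peaks of the 40 libraries were merged, and 1 of them, in Gpi1, held a match (1.37%). Over all 215160 sites the share was 2.25%, and over 52935 windows of the same length spaced evenly through the genome it was 2.29%. With at most 1 mismatch 0 of the 73 windows matched, so the match in Gpi1 had 2 mismatches. The lack of a match says nothing about what was bound there.

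Other genes of the pathway, 17 in number, showed which isoforms were called. In WT livers 0 of the 17 were called in at least 3 of 5 livers of any group. In each of the 4 KO groups the same 7 were, Hk1, Pfkl, Pfkm, Pfkp, Aldoc, Bpgm and Ldhb. By the same rule 0.515% to 12.7% of all protein-coding genes were called in the WT groups and 24.3% to 29.0% in the KO groups. Hk1 (hexokinase 1, the form of brain and red cells) was called in 20 of 20 KO livers with a median of 7.62, and Pfkp (the platelet type phosphofructokinase) in 20 with 8.49. Aldoc (the brain aldolase) was called in 19 with 6.04 and Ldhb (the heart type lactate dehydrogenase) in 19 with 5.70. Pfkl (the liver type phosphofructokinase) was called in 18 KO livers with a median of 3.56. Pklr, which encodes the liver form of pyruvate kinase, was called in 2 of 40 livers, 1 treated WT and 1 KO. Pgam2 and Eno3, the muscle forms of the mutase and enolase, were called in 2 and 0 of 40 livers.

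**Figure D4:**
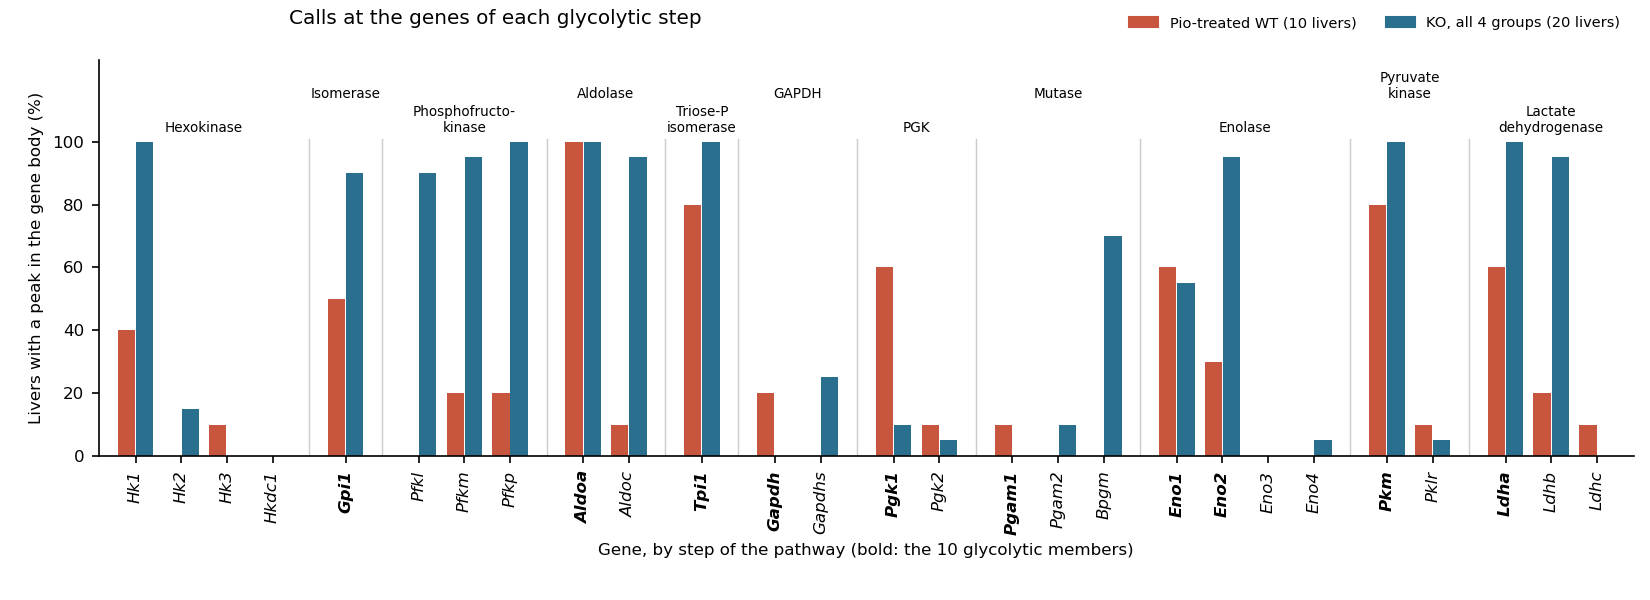
Share of livers with a peak in the gene body (percent) for the 10 members (bold) and 17 other genes of the pathway, grouped by step, in Pio-treated WT (10) and KO (20) livers. Aldoa, Aldoc and Pkm have high KO bars, and Pklr, next to Pkm, is at 1 of 20. Pfkl is at 18 of 20 KO livers and Eno3 at 0.

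Gluconeogenic genes, which encode the reverse pathway of the liver, differed from each other. Pck1 (the cytosolic phosphoenolpyruvate carboxykinase) was called in 8 of 10 treated WT livers with a median of 7.13 and in 0 of 20 KO and 0 untreated WT livers. Pck2 was called in 7 treated WT and 4 KO livers. Both were gained with Pio in both WT comparisons, 2 of the 8 gluconeogenic genes, against 7.50% and 7.67% of all protein-coding genes. In each liver where Pck1 or Pck2 was called, a peak touched an exon of it. Pcx was called in 17 KO and 2 treated WT livers. Fbp1, Fbp2, G6pc3 and Slc37a4 were called in 1, 1, 1 and 2 treated WT and 0, 0, 8 and 4 KO livers, and G6pc in 3 and 7 with no peak touching an exon.

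Markers of cell types differed by list in the groups where they were called. Of 10 hepatocyte markers, Ass1 was called in at least 3 livers of each treated WT group and Ttr in all 20 KO livers, with summed fold enrichment of 0 to 7.51 per treated WT, 13.9 to 30.2 per KO and 0 to 45.7 per untreated WT liver, while Apob and Fgb had a peak in 0 of 40 livers and Alb in 2. Of 12 neural markers, 9 were called in at least 3 livers of each KO group (Nefl, Nefm, Snap25, Syt1, Syp, Tubb3, Map2, Gap43 and Stmn2). In each treated WT group 4 were (Snap25, Syt1, Tubb3 and Map2), of which Map2 was also called in 3 of 5 WT Control livers. By this rule, the same for each list, 24.3% to 29.0% of all protein-coding genes were called in the KO groups. The share was 12.7% in WT Pio and 10% in WT HFD-Pio. The neural list's summed fold enrichment was 108 to 191 per KO liver, 3.99 to 38.2 per treated WT liver and 0 to 13.7 per untreated WT liver. Nefh, Mbp and Gfap, of which Mbp and Gfap are glial, were called in 1, 2 and 1 of 20 KO livers. Of 6 intestinal markers, 4 (Vil1, Lgals4, Cdh17 and Krt20) were called in at least 3 livers of each treated WT group and 0 in any KO group, with sums of 0 to 43.8 in treated WT, 0 to 6.56 in KO and 0 to 7.48 in untreated WT livers, and Fabp2 at 0 throughout.

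Of 6 smooth muscle markers, Acta2 and Tagln were called in 20 of 20 KO and 10 and 7 of 10 treated WT livers. Actg2 was called in 10 treated WT and 8 KO livers, Myh11 in 5 and 6, Cnn1 in 1 and 4 and Des in 0 and 6. The list sums were 9.97 to 69.0 in treated WT, 10.2 to 31.2 in KO and 0 to 9.45 in untreated WT livers. Of 6 skeletal muscle markers, Acta1 was called in all 30 treated WT and KO livers, with list sums of 4.38 to 47.4 in treated WT, 6.25 to 17.995 in KO and 0 in untreated WT livers, while Tnnt3, Mylpf and Tnnc2 had no peak. Of 5 erythroid markers, Hbb-bs was called in 20 KO and 0 WT livers, Hba-a1 in 18 and 2, and Alas2 in 0, with sums of 9.03 to 26.0 in KO, 0 to 4.56 in treated WT and 0 in untreated WT livers. The neural and intestinal lists were chosen with earlier results of these data known, and the part of any of these markers' sources in the calls at the 10 genes was not tested.

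Genes outside these lists with the most similar pattern were found by Pearson's r over the 40 libraries between their log2 strongest fold enrichment (0 without a peak) and the mean of the 10 genes. They were Prdx2 (r = 0.974), Fnbp4 (0.966), Brk1 (0.964), Cbx1 (0.963) and Atp6v0d1 (0.961). Prdx2 encodes a peroxiredoxin and Brk1 a subunit of the actin regulating WAVE complex. Each was called in 20 of 20 KO, 7 to 9 of 10 treated WT and 0 of 10 untreated WT livers, and the libraries share the depth and cutoff differences given above.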

How the data were processed

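RXR ChIP-Seq was performed on 40 livers, each with an input library. Per the file headers and the labels, the authors aligned single reads of 50 bases to mm10 with Novoalign and called peaks in each liver against its input with MACS2 2.1.1.20160309. The deposited peak lists give the pileup signal at the summit, the fold enrichment over input, and −log10 values of p and q. The cutoff was 0.001 on p in WT and 0.05 on q in KO livers, and kept tags were 0.628 to 4.26 M per library, so peaks absent from a list may lie under its depth or cutoff. Only 1 tag per position was kept and replicates were not pooled. A second deposited list per library, with the same peaks, was not used.

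Peaks were joined to GENCODE M21 gene bodies (at least 1 bp shared) and the strongest peak per gene and liver was kept. Calls were compared with two-sided Fisher's exact tests with Benjamini-Hochberg adjustment over all genes called in at least 3 livers. Strength was compared with limma 3.58.1 in R 4.3.3, where passing needed an adjusted p below 0.05 and a minimum size of change. Other tools were bedtools 2.31.1, samtools 1.23.1, BLAST+ 2.17.0 and Python 3.11.15 with scipy 1.17.1, pandas 2.3.3 and numpy 2.4.6, and the tests were tested on simulated data. Sequences are RefSeq GRCm38.p6. Gene names were all 10 members, the listed pathway and marker genes, and the 5 most similar genes. A few genes of the pathway and marker lists are not reported here. Members and lists were chosen with earlier results of these data known. Replicates are separate livers. Alternatives covered calling cutoffs, overlap, list length, number of livers, left-out livers, centring and a replicate block.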

Additional observations from a re-analysis of the deposited data

Results flagged for a closer look

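Among 35 groups of 5 livers examined for a value standing apart, 1 did: KO HFD-Pio 5 had a peak in 6 of the 10 genes, and the other 4 livers of that group had a peak in 7. With the other 4 counts tied, any difference of 1 gene would have stood apart in this way.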

How the results depend on the processing

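For the 4 reported counts above 0, 61 of 78 alternatives stayed within 1.5 times the count, and for the 20 counts of 0, which can only rise, 365 of 382 stayed at 0. For strength 96 of 98 did not change. Percentages are the shares of all genes. Peaks that touch no exon gave 0 gained genes in WT Pio (1.79%) and WT HFD-Pio (3.23%), 1 (Pkm) in KO Pio (0.319%) and KO HFD-Pio (0.324%), 0 only in KO for Control (1.77%) and HFD (2.73%), and 1 (Pkm) for Pio (1.29%) and HFD-Pio (1.26%). Lists of equal length gave 1 gained gene in WT Pio (1.53%) and 2 in WT HFD-Pio (0.857%), 2 only in KO Control (2.06%), 1 only in KO HFD (1.38%), and for HFD-Pio 1 only in WT (Tpi1, 1.44%) and 1 only in KO (Ldha, 2.95%). For WT HFD-Pio, −log10 q of at least 5 (1.45%), q of at most 0.05 (3.12%), fold enrichment of at least 5 (2.097%) and 4 of 5 livers (2.65%) each gave 3, against 7.67% as reported. With fold enrichment of at least 5, 1 gene (Eno2) was lost in KO HFD-Pio against KO HFD (0.351%) and KO Pio (0.433%), 1 (Eno1) was only in WT Pio (1.81%), 2 (Eno2 and Gpi1) only in KO Pio (8.05%) and 1 (Ldha) only in KO HFD-Pio (6.98%). With −log10 q of at least 5, 2 genes were only in KO Pio (8.52%) and 1 only in KO HFD-Pio (7.85%). Allowing 1 call in the other group, 1 gene (Pgk1) was only in WT Pio (3.77%) and 1 (Eno2) only in KO HFD-Pio (16.8%). Without the short-fragment libraries, a choice made after seeing the data, 1 gene (Aldoa) was gained in each diet (1.40% and 1.07%). The causes were not tested.

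Leaving out 1 liver gave 5 to 6 gained genes in WT Pio and 3 to 5 in WT HFD-Pio, 0 to 1 only in WT Pio (Pgk1 without KO Pio replicate 1), and 0 to 1 only in KO HFD-Pio (Eno2 without WT HFD-Pio replicate 1). By limma, Pkm alone of the 10 differed between WT HFD-Pio and KO HFD-Pio (1 call) among genes with a peak in at least 4 of 5 livers (adjusted p = 0.00525), and without WT HFD-Pio replicate 3 (adjusted p = 0.00164), with 0 to 1 call over the left-out livers. The replicate block in limma called 0 members in 7 contrasts (smallest adjusted p = 0.254). Livers with the same number did not deviate together in peak strength (r = -0.611 to 0.166, own number best for 0 to 2 of 5). This covers only genes with a peak in all 10 livers and cannot exclude a pairing. The labels do not say whether a number is shared between groups. A gene without a peak was not called at that library's depth and cutoff, and the peak lists do not show how far below them it lay.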
